A study of Homo sapiens with 20 samples.

Results

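The neuronal ELAVL genes and the stathmin genes were followed in the polysomes of BE(2)-C cells after knockdown of the long noncoding RNA lncNB1. BE(2)-C is a human neuroblastoma line, long established in culture, whose MYCN oncogene is amplified. The members were the 4 ELAVL genes (ELAVL1, ELAVL2, ELAVL3 and ELAVL4) and the 4 stathmin genes (STMN1, STMN2, STMN3 and STMN4), which makes 8 genes. They were chosen by the ELAVL3 and STMN2 signals of these same arrays, which were lower after knockdown, for STMN2 mainly with the second siRNA. Of these 8 genes, 7 were matched by gene symbol to 1 transcript cluster each, out of 21448 clusters tested. STMN1 had no cluster under its symbol in the platform annotation used and was not analysed here.

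Transfection lasted 48 h, and the cells received control siRNA, siRNA-1 or siRNA-2 against lncNB1 (lncNB siRNA-1 and lncNB siRNA-2 in the sample names). Cycloheximide, which stalls ribosomes on the mRNA, was given before the lysates were separated in a sucrose gradient. RNA of light polysomes, which carries few ribosomes, and of heavy polysomes, which carries many, was hybridised to Clariom S arrays. Each fraction had 4 control arrays (replicates 1, 2, 3 and 4), 3 siRNA-1 arrays (replicates 1, 2 and 4) and 3 siRNA-2 arrays (replicates 1, 2 and 3), giving 20 arrays of 1 cell line. All groups shared the transfection, the cycloheximide and the cell line, and the level of lncNB1 itself was not analysed here.

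ELAVL proteins (also named Hu proteins) bind AU-rich and U-rich stretches in mRNA and regulate its stability, splicing and translation. ELAVL1 (HuR) is made in nearly all cells, whereas ELAVL2 (HuB), ELAVL3 (HuC) and ELAVL4 (HuD) are typical of neurons and of neuroblastoma. Stathmins bind tubulin dimers and make microtubules less stable. STMN2 (SCG10) and STMN3 (SCLIP) are membrane-bound forms known for their part in the growth and upkeep of neurites, and STMN4 (RB3) is a further neural form.

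Values are log2 array signals, with 1 value per gene and array. All arrays had been brought to a common distribution, so a difference is relative to the other mRNAs of that fraction, and a signal says nothing of 1 gene against another. In these bulk samples fewer cells of a type and less RNA per cell cannot be told apart. Array medians lay between 6.58 and 6.68. The 635 background probe sets of the arrays had a 95th percentile between 4.72 and 5.48, and 6 of the 7 members were above it on all 20 arrays. STMN4 was above it on 13 of 20 arrays and lay between 0.56 below and 0.98 above it, so its changes were measured close to background. All 11 measured markers of sympathoadrenal neuroblasts, the cells that neuroblastoma resembles, were above background on every array, among them HAND2, ISL1, PHOX2A and DBH, and the median of their signals lay between 8.79 and 9.72 over the 6 groups. Of 5 measured Schwann cell markers, S100B, SOX10 and FOXD3 were above it on every array and ERBB3 and CDH19 on none, and the median of the 5 lay between 5.33 and 5.68 over the groups. Of 9 measured mesenchymal markers 6 were above it on every array (VIM, COL1A1, SNAI2, CD44, TWIST1 and PDGFRB) and YAP1 on none, with a median between 6.74 and 6.93. In replicate 1 the light arrays lay closer to the heavy arrays than in the other replicates. The SD of their difference over all clusters was 0.36 (control), 0.45 (siRNA-1) and 0.40 (siRNA-2), against 0.49 to 0.65 in the other 7 transfections.

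ELAVL3, a neuron-specific Hu protein, had its lowest signals with siRNA-2. In light polysomes it read 8.45, 8.53, 8.48 and 8.32 with control siRNA, 7.97, 7.70 and 7.96 with siRNA-1, and 7.41, 7.12 and 7.52 with siRNA-2. The 3 groups did not overlap, and control was highest and siRNA-2 lowest. In heavy polysomes ELAVL3 read 8.82, 9.17, 9.52 and 9.56 with control siRNA, 8.69, 8.75 and 9.44 with siRNA-1, and 8.11, 7.71 and 8.27 with siRNA-2. Here the siRNA-2 arrays lay below all others, while siRNA-1 overlapped control, with replicate 4 of siRNA-1 among the control values.

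The mean of ELAVL3 with siRNA-2 was 1.10 lower than control in light polysomes (2.14-fold) and 1.24 lower in heavy polysomes (2.36-fold). With siRNA-1 the mean was 0.57 lower in light polysomes (1.49-fold) and 0.31 lower in heavy polysomes (1.24-fold). The SD within groups was 0.09 to 0.21 in light and 0.29 to 0.42 in heavy polysomes. These differences were among the reasons for taking up the genes, so they are given with no test. In order of mean, ELAVL3 ran from control heavy (9.27), siRNA-1 heavy (8.96), control light (8.45), siRNA-2 heavy (8.03) and siRNA-1 light (7.88) to siRNA-2 light (7.35). Of the neighbours in that order, control heavy overlapped siRNA-1 heavy and siRNA-2 heavy overlapped siRNA-1 light.

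STMN2, the stathmin of growing axons, was low with siRNA-2 alone. In light polysomes it read 11.53, 11.49, 11.79 and 11.65 with control siRNA, 11.56, 11.59 and 11.54 with siRNA-1, and 10.65, 9.97 and 10.52 with siRNA-2. In heavy polysomes it read 11.87, 11.94, 11.81 and 11.89 with control siRNA, 11.85, 11.94 and 11.73 with siRNA-1, and 10.83, 10.23 and 10.45 with siRNA-2. The siRNA-2 arrays lay below every control and siRNA-1 array in both fractions, and replicate 2 was the lowest of them each time. Control and siRNA-1 arrays overlapped throughout.

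With siRNA-2 the STMN2 mean was 1.23 lower than control in light polysomes (2.35-fold) and 1.38 lower in heavy polysomes (2.60-fold). In heavy polysomes 1 of the 21448 clusters had a lower siRNA-2 difference, and in light polysomes 2 had one. This rank follows in part from the choice of the gene. With siRNA-1 the STMN2 mean was 0.05 lower in light and 0.03 lower in heavy polysomes, which is within the SD of the control arrays (0.13 and 0.05). The same 2 members were also apart between the siRNAs. siRNA-1 minus siRNA-2 was 1.18 in light and 1.34 in heavy polysomes for STMN2, and 0.53 and 0.93 for ELAVL3. None of these values was tested, since they chose the genes.

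**Figure D1:**
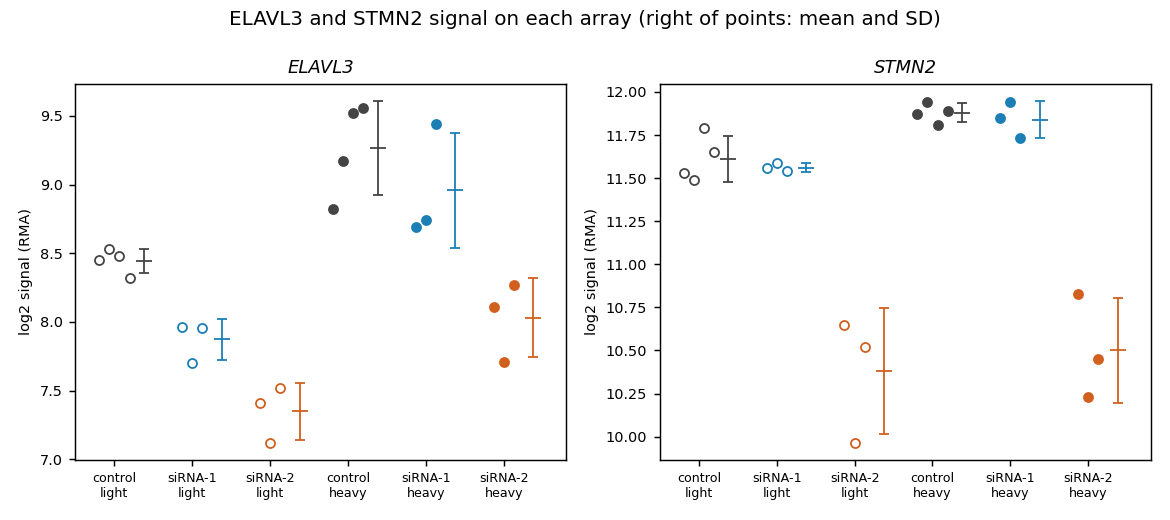
Log2 signal of ELAVL3 (left) and STMN2 (right) on each of the 20 arrays, by siRNA and polysome fraction; open points are light and filled points heavy polysomes, and the bars beside them give the mean and SD of 3 or 4 arrays. The siRNA-2 arrays of STMN2 lie between 9.97 and 10.83, below all control and siRNA-1 arrays (11.49 to 11.94), and ELAVL3 is lowest with siRNA-2 in light polysomes (7.12 to 7.52).

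The other 5 measured members played no part in the choice and were tested. With siRNA-1, ELAVL2 rose in both fractions and STMN4 rose in heavy polysomes, and none of the 5 fell. With siRNA-2, none of the 5 passed. An mRNA was called at an adjusted p under 0.05 (limma, adjusted by Benjamini-Hochberg over all clusters). In heavy polysomes 2 of 5 members were called with siRNA-1, against a background of 8.91% of all clusters, and 0 of 5 with siRNA-2, against 0.415%. In light polysomes 1 of 5 was called with siRNA-1, against 11.6%, and 0 of 5 with siRNA-2, against 0.41%. At an unadjusted p under 0.05, limma gave 2 of 5 with siRNA-2 in heavy polysomes (ELAVL4 and STMN4), against 8.63% of all clusters, and 2 of 5 in light polysomes (ELAVL1 and ELAVL4), against 9.8%. Arrays of the siRNA-1 and control groups did not overlap for 2 of 5 in heavy polysomes (17.5% of all clusters) and 2 of 5 in light polysomes (20.5%), and those of siRNA-2 and control for 1 of 5 (9.74%) and 2 of 5 (10.8%).

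ELAVL2 read 7.22, 7.63, 7.97 and 7.89 in heavy polysomes with control siRNA, 8.20, 8.94 and 8.94 with siRNA-1, and 8.004, 8.06 and 7.82 with siRNA-2. Every siRNA-1 array was above every control and siRNA-2 array, and replicate 1 was the lowest in both the control and the siRNA-1 group. The rise with siRNA-1 was 1.01 on the log2 scale (2.02-fold, SE 0.206, adjusted p = 0.0079, 3 against 4 arrays, limma). It was 0.89 with an adjusted p of 0.0546 (limma) without siRNA-1 replicate 2. With siRNA-2 the difference was 0.28 (95% interval -0.16 to 0.72, adjusted p = 0.824, limma).

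In light polysomes ELAVL2 read 7.29, 7.14, 7.23 and 7.23 with control siRNA, 7.56, 8.30 and 7.96 with siRNA-1, and 7.46, 7.41 and 7.41 with siRNA-2. All 6 knockdown arrays were above all 4 control arrays, and the 3 siRNA-1 arrays were above the 3 siRNA-2 arrays. The rise with siRNA-1 was 0.72 (1.64-fold, SE 0.148, adjusted p = 0.0051, limma), and it passed under each of 18 alternative settings. With siRNA-2 the difference was 0.20 (adjusted p = 0.741, limma). On the same light siRNA-1 arrays ELAVL3 lay below all control arrays, and ELAVL2 above them.

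ELAVL1, the general member of the family, had overlapping groups in heavy polysomes. It read 10.34, 10.87, 10.86 and 10.92 with control siRNA, 10.32, 10.82 and 11.05 with siRNA-1, and 10.95, 10.97 and 10.77 with siRNA-2. Replicate 1 of control and of siRNA-1 stood below the rest. In light polysomes it read 9.62, 9.58, 9.94 and 9.70 with control siRNA, 9.65, 9.88 and 9.68 with siRNA-1, and 10.27, 9.99 and 10.16 with siRNA-2. The 3 siRNA-2 arrays were above all others there, by 0.43 over control on average (SE 0.129, 95% interval 0.15 to 0.70), but the difference did not pass (adjusted p = 0.227, limma). With siRNA-1 the differences were -0.02 in heavy and 0.03 in light polysomes.

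ELAVL4, a marker of neuronal differentiation and the Hu protein best known in neuroblastoma, read lower on average with siRNA-2 than with control siRNA, but the groups overlapped. In heavy polysomes it read 9.80, 10.03, 10.36 and 10.47 with control siRNA, 9.89, 10.03 and 10.32 with siRNA-1, and 9.89, 9.70 and 9.81 with siRNA-2. In light polysomes it read 9.73, 10.01, 10.25 and 10.02 with control siRNA, 9.67, 9.98 and 10.04 with siRNA-1, and 9.72, 9.49 and 9.76 with siRNA-2. Control replicate 1 lay within the siRNA-2 range in both fractions. The siRNA-2 difference was -0.37 in heavy (95% interval -0.72 to -0.01, adjusted p = 0.558) and -0.34 in light polysomes (-0.65 to -0.03, adjusted p = 0.445), and neither passed (limma).

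STMN3, a relative of STMN2 in neurons, did not share its low siRNA-2 values. In heavy polysomes it read 8.78, 8.99, 8.82 and 8.91 with control siRNA, 9.07, 8.97 and 9.06 with siRNA-1, and 8.92, 9.25 and 9.11 with siRNA-2. In light polysomes it read 8.18, 7.89, 8.13 and 8.06 with control siRNA, 8.40, 8.34 and 8.30 with siRNA-1, and 8.39, 8.15 and 8.38 with siRNA-2. Its means were above control in all 4 comparisons, and only the light siRNA-1 arrays cleared all control arrays. The differences ran from 0.16 (siRNA-1, heavy) to 0.28 (siRNA-1, light, 95% interval 0.02 to 0.54), and none passed, with adjusted p from 0.166 to 0.665 (limma).

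STMN4 read 5.002, 5.27, 5.14 and 5.30 in heavy polysomes with control siRNA, 5.85, 5.79 and 5.75 with siRNA-1, and 5.49, 5.38 and 5.39 with siRNA-2. The 3 groups did not overlap, with siRNA-1 highest and control lowest. The rise with siRNA-1 was 0.62 (1.54-fold, SE 0.113, adjusted p = 0.00437, limma), and it passed under each of 18 alternative settings. With siRNA-2 the difference was 0.24 (adjusted p = 0.576, limma). In light polysomes STMN4 read 4.89, 5.23, 5.06 and 5.26 with control siRNA, 5.29, 5.14 and 5.41 with siRNA-1, and 4.75, 5.28 and 5.18 with siRNA-2. These groups overlapped, and the differences were 0.17 with siRNA-1 and -0.05 with siRNA-2.

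**Figure D2:**
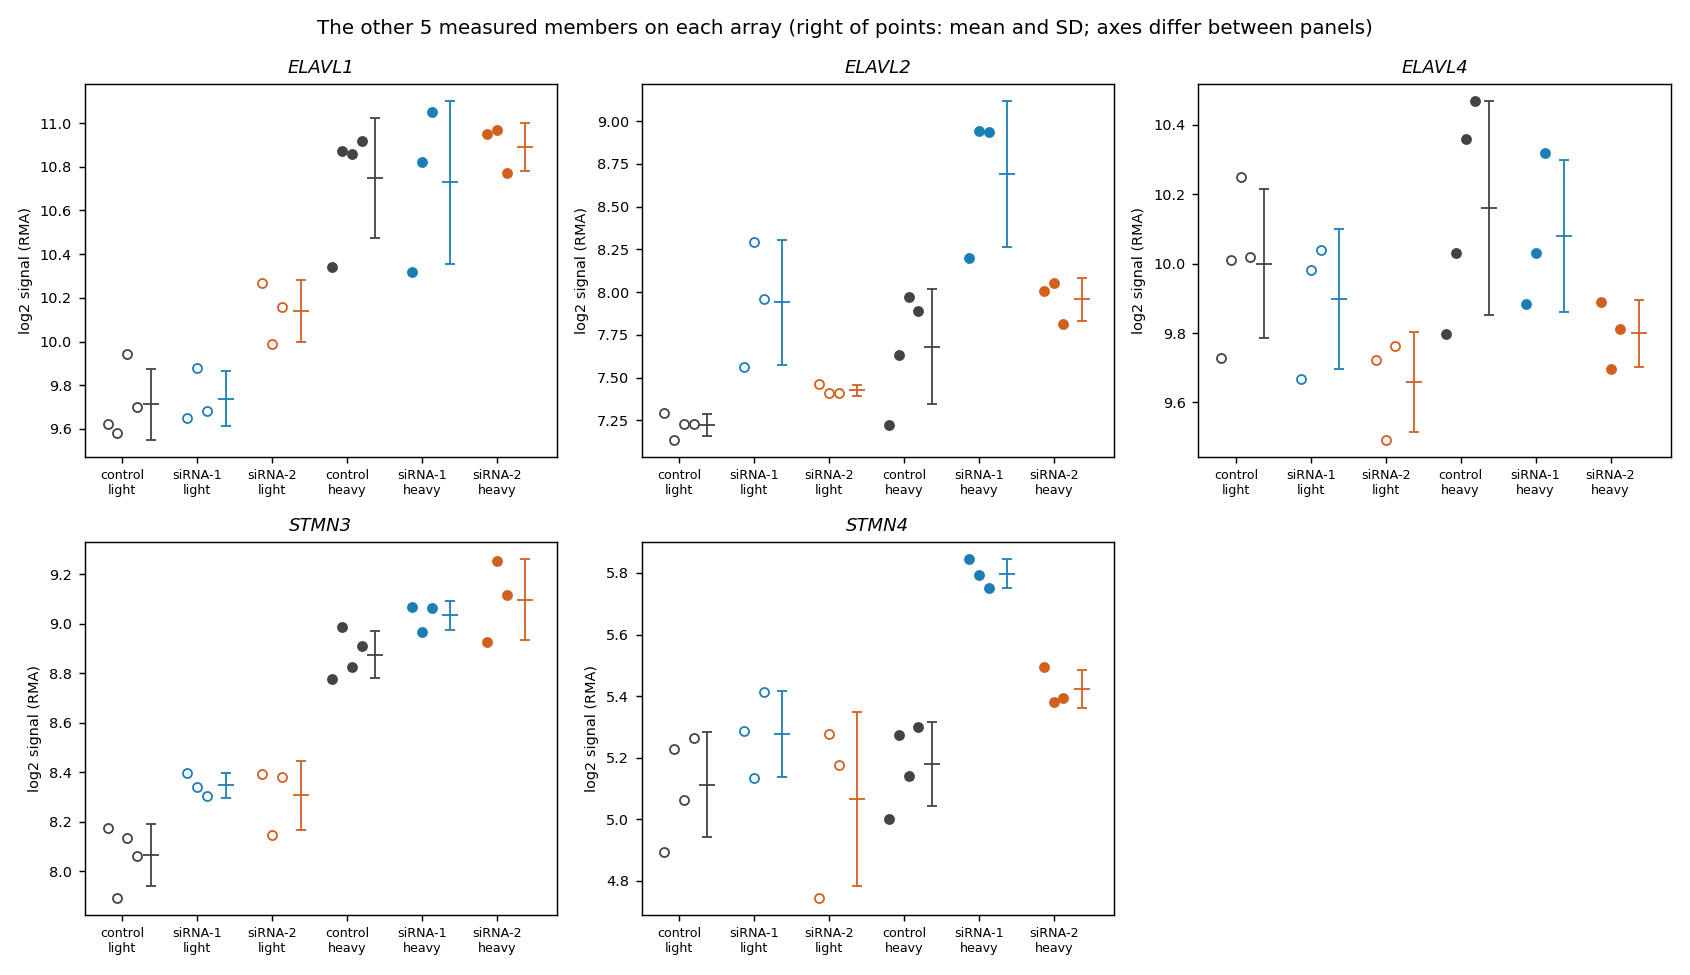
Log2 signal of the 5 tested members on each of the 20 arrays, by siRNA and polysome fraction (open points light, filled points heavy; bars are mean and SD of 3 or 4 arrays; axes differ between panels). The siRNA-1 arrays are highest for ELAVL2 in each fraction and for STMN4 in heavy polysomes, where they lie between 5.75 and 5.85 against 5.002 to 5.30 in control.

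The siRNAs were also set against each other, which tests whether their effects differed. In light polysomes 1 of 5 tested members was called, against 12.3% of all clusters: ELAVL2 was 0.51 higher with siRNA-1 than with siRNA-2 (SE 0.159, adjusted p = 0.0467, limma). That call was lost under 12 of 18 alternatives, among them leaving out any single array but siRNA-1 replicate 1, and the difference was 0.33 (adjusted p = 0.199, limma) without siRNA-1 replicate 2. In heavy polysomes 0 of 5 were called, against 8.75%, and 2 of 5 had an unadjusted p under 0.05, against 21.7%. They were ELAVL2, at 0.73 (adjusted p = 0.0556, limma), and STMN4, at 0.37 (adjusted p = 0.0753, limma). ELAVL2 was called there under 7 of 18 alternatives, with adjusted p down to 0.00382 (array weights, limma), among them the replicate number as a block (0.0282), control replicate 1 left out (0.0281) and siRNA-1 replicate 1 left out (0.00795). STMN4 was called with array weights (0.0269, limma). ELAVL1 was 0.40 lower with siRNA-1 than with siRNA-2 in light polysomes (adjusted p = 0.0752, limma).

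On the mean of both siRNAs against control, 1 of 5 tested members was called in heavy polysomes, against 1.62% of all clusters. STMN4 was 0.43 higher (SE 0.0955, adjusted p = 0.0409, limma), and all 6 knockdown arrays were above all 4 control arrays. The call was lost under 12 of 19 alternatives, 8 of them leaving out a single array (every one but siRNA-1 replicates 1 and 4), with adjusted p up to 0.298 when both siRNAs were taken as 1 group. ELAVL2 was 0.65 higher and did not pass (adjusted p = 0.0844, limma). It was called under 5 of 19 alternatives, at 0.69 with the replicate number as a block (adjusted p = 0.0122, limma) and at 0.77 without siRNA-1 replicate 1 (adjusted p = 0.016, limma). In light polysomes 0 of 5 were called, against 2.95%, and 2 of 5 had an unadjusted p under 0.05 (limma), against 15.4%, namely ELAVL2 (0.46, adjusted p = 0.0637) and STMN3 (0.26, adjusted p = 0.212). ELAVL2 was called there too under 5 of 19 alternatives, 1 of them without siRNA-1 replicate 1 (0.56, adjusted p = 0.0125, limma). For ELAVL3 the mean of both siRNAs was 0.77 lower in heavy and 0.83 lower in light polysomes, and for STMN2 0.71 and 0.64 lower, with no test.

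**Figure D3:**
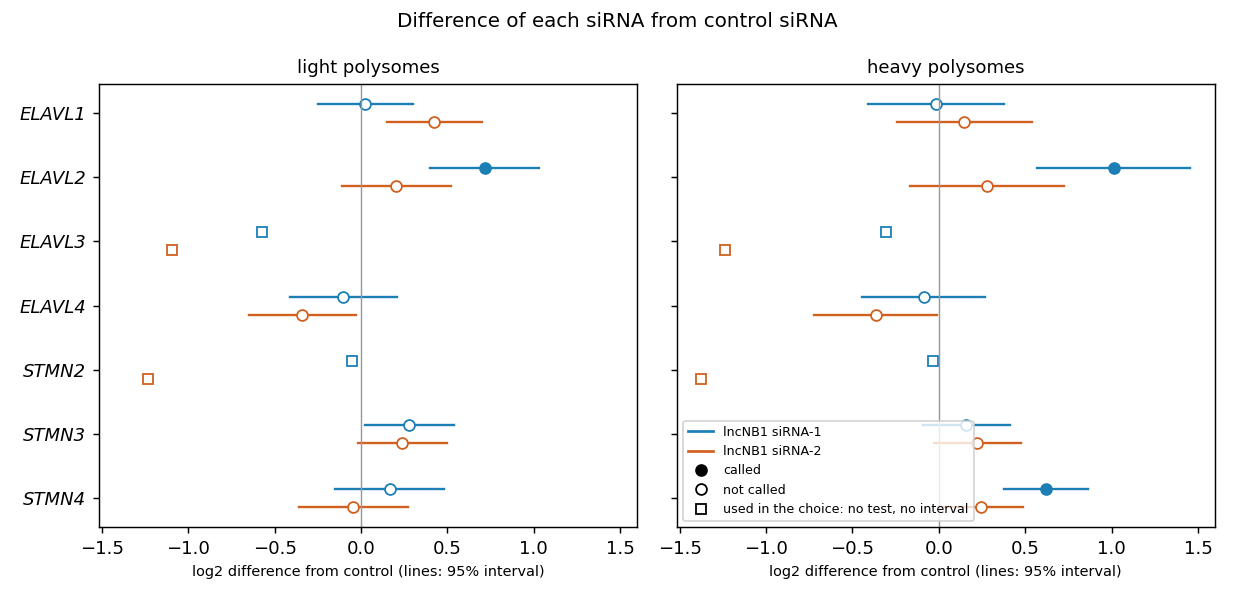
Log2 difference of each siRNA from control siRNA for the 7 measured members, in light (left) and heavy (right) polysomes; lines are 95% intervals, filled circles are called at an adjusted p under 0.05 and squares mark ELAVL3 and STMN2, which have no test. ELAVL2 is at 0.72 and 1.01 with siRNA-1, and STMN2 is at -1.23 and -1.38 with siRNA-2 while it stays at -0.05 and -0.03 with siRNA-1.

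The members were not chosen by how an mRNA is spread between heavy and light polysomes in control cells, so it was tested for all 7 members. For ELAVL3 and STMN2 the control arrays are the same ones against which their low signals were seen. ELAVL1, ELAVL2, ELAVL3 and STMN3 were higher in heavy than in light polysomes, and no member was lower. This gave 4 of 7 called, against 27.3% of all clusters in either direction and 14.5% higher. ELAVL1 had heavy minus light differences of 0.71, 1.29, 0.91 and 1.22 in control replicates 1, 2, 3 and 4, ELAVL3 of 0.37, 0.64, 1.04 and 1.23, and STMN3 of 0.60, 1.10, 0.69 and 0.85. All of these values were above 0, and replicate 1 was the lowest for each of the 3 genes.

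The mean was 1.03 for ELAVL1 (2.05-fold, SE 0.136, adjusted p = 9.24e-05), 0.82 for ELAVL3 (1.77-fold, SE 0.15, adjusted p = 0.000922) and 0.81 for STMN3 (1.75-fold, SE 0.122, adjusted p = 0.000244; limma on 10 paired differences). Without control replicate 1 they were 1.14, 0.97 and 0.88. ELAVL2 had -0.07, 0.50, 0.74 and 0.66 and a mean of 0.46 (SE 0.134, adjusted p = 0.0182, limma), so replicate 1 showed no excess in heavy polysomes. Its mean was 0.63 without that replicate, and its call was lost when any of control replicates 2, 3 and 4 was left out (adjusted p up to 0.11) and with the fractions unpaired (0.0514).

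STMN2, ELAVL4 and STMN4 did not pass. STMN2 had 0.34, 0.45, 0.02 and 0.24 in the 4 control replicates, with a mean of 0.26 (95% interval 0.03 to 0.50, adjusted p = 0.0981, limma), and was called with the replicate number as a block (0.0371) and after repeated quantile normalization (0.0145). ELAVL4 had 0.07, 0.02, 0.11 and 0.45, with a mean of 0.16 (adjusted p = 0.316, limma). STMN4 had 0.11, 0.04, 0.08 and 0.04, near background in both fractions. For ELAVL4 the control mean rested largely on replicate 4, and for STMN2 replicate 3 showed almost no difference between the fractions.

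The knockdown transfections mostly read in the same direction. ELAVL1, ELAVL3, ELAVL4, STMN3 and STMN4 were higher in heavy than in light polysomes in all 10 transfections, as were 14.1% of all clusters, and ELAVL2 and STMN2 in 9 of 10. Over the 10 transfections the differences ran from 0.61 to 1.37 for ELAVL1, from 0.37 to 1.49 for ELAVL3 and from 0.53 to 1.11 for STMN3. They ran from 0.02 to 0.45 for ELAVL4 and from -0.08 to 0.45 for STMN2. ELAVL4 therefore kept a narrow range close to 0, whereas ELAVL3 had a wide range away from it.

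**Figure D4:**
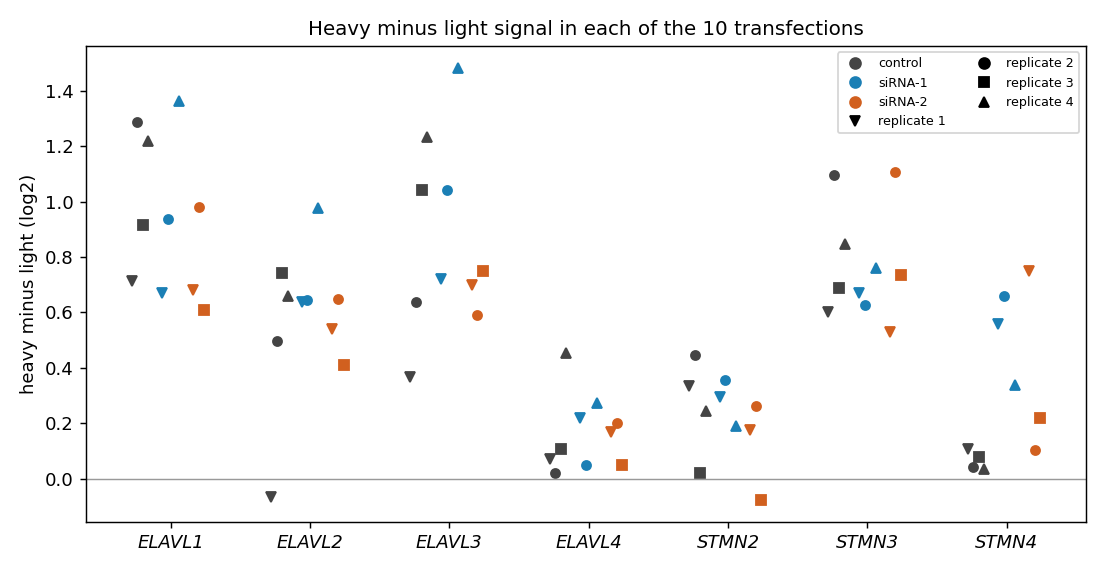
Heavy minus light log2 difference of the 7 measured members in each of the 10 transfections, coloured by siRNA, with a symbol for each replicate number. ELAVL1, ELAVL3 and STMN3 lie above 0 in all 10, between 0.37 and 1.49, and the exceptions below 0 are ELAVL2 in control replicate 1 (-0.07) and STMN2 in siRNA-2 replicate 3 (-0.08).

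Whether an siRNA shifted a member between the fractions was tested on the same differences. No member was called with either siRNA (0 of 5, against 0% of all clusters for each), and limma gave an unadjusted p under 0.05 for 1 of 5 with siRNA-1 and 0 of 5 with siRNA-2, against 5.62% and 2.53% of all clusters. That member was STMN4, whose heavy minus light difference was 0.07 in control and 0.52 with siRNA-1, a shift of 0.45 (95% interval 0.06 to 0.84, adjusted p = 0.849, limma). The shifts of the other 4 lay between -0.28 (ELAVL1, siRNA-2) and 0.30 (ELAVL2, siRNA-1), and that of STMN4 with siRNA-2 was 0.29. For ELAVL3 the shift was 0.26 with siRNA-1 and -0.14 with siRNA-2, and for STMN2 0.02 and -0.14, with no test. The low STMN2 and ELAVL3 signals of siRNA-2 were present in both fractions.

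Genes that work with ELAVL proteins or stathmins were taken from lists of 199 measured genes in 10 groups. The lists were drawn up with earlier results of these data known, so their shares are a description and no test of enrichment. In heavy polysomes 34 of them were called with siRNA-1 (21 higher, 13 lower, 17.1% of the listed genes, against 8.91% of all clusters) and 4 with siRNA-2 (2.01%, against 0.415%). In light polysomes 37 were called with siRNA-1 (12 higher, 25 lower, 18.6%, against 11.6%) and 4 with siRNA-2 (2.01%, against 0.41%). The same shares of all clusters stand against the counts of each single list. The siRNA-2 calls were the same 4 genes in both fractions: TARDBP and CCNE1, which fell, and CDKN1A and DCLK2, which rose. At an unadjusted p under 0.05, limma gave 26 of 199 with siRNA-2 in heavy polysomes (13.1%, against 8.63% of all clusters) and 28 in light polysomes (14.1%, against 9.8%).

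TARDBP encodes TDP-43, an RNA-binding protein whose loss in human neurons is known to disturb the splicing of STMN2 pre-mRNA and to lower full-length STMN2. It read 10.22, 10.35, 10.65 and 10.84 in heavy polysomes with control siRNA, 10.16, 10.37 and 10.52 with siRNA-1, and 9.65, 9.07 and 9.61 with siRNA-2. In light polysomes it read 10.09, 9.97, 9.62 and 9.93 with control siRNA, 10.07, 9.85 and 9.71 with siRNA-1, and 9.29, 9.01 and 9.26 with siRNA-2. As with STMN2, the siRNA-2 arrays lay below all others in both fractions, replicate 2 was the lowest of them, and siRNA-1 overlapped control.

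TARDBP fell by 1.07 with siRNA-2 in heavy polysomes (SE 0.18, adjusted p = 0.0238, limma), where 14 of the 21448 clusters had a lower difference, and by 0.71 in light polysomes (SE 0.141, adjusted p = 0.0408, limma). With siRNA-1 it was 0.17 lower in heavy and 0.03 lower in light polysomes. The heavy call was lost under 5 of 18 alternatives and the light call under 10 of 18, with adjusted p up to 0.211 and 0.2 without siRNA-2 replicate 2. The arrays whose removal ended the heavy call were control replicates 2, 3 and 4 and siRNA-2 replicates 2 and 3. For the light call they were control replicates 1, 2 and 4, siRNA-1 replicate 2 and all 3 siRNA-2 replicates. After the mean of each fraction was subtracted, TARDBP had a correlation of 0.888 with STMN2, 0.906 with ELAVL3, 0.672 with ELAVL4 and -0.451 with STMN3 over the 20 arrays. These points share arrays and siRNA groups and are no independent evidence. The part of TARDBP in the STMN2 and ELAVL3 values was not tested, and with 1 value per gene a normal and a shortened STMN2 transcript were not told apart. The siRNA sequences were not used here, and for a gene that was low with siRNA-2 alone an effect of lncNB1 knockdown and an effect of that siRNA on other transcripts cannot be told apart.

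Of 29 measured neuronal RNA-binding proteins and splicing regulators, 3 rose and 1 fell with siRNA-1 in heavy polysomes, and 3 rose and 2 fell in light polysomes. MBNL2, a muscleblind splicing factor, rose by 0.89 in heavy (adjusted p = 0.00104) and 0.93 in light polysomes (adjusted p = 0.000558). NOVA1, a neuronal splicing regulator and itself described as bound by ELAVL proteins, rose by 0.75 (adjusted p = 0.00113) and 0.74 (adjusted p = 0.00108, limma for all). The 1 called with siRNA-2 in each fraction was TARDBP.

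Of 22 measured factors that act on AU-rich mRNAs, on decay or with ELAVL1 in export, 2 rose with siRNA-1 in heavy polysomes and 1 fell in light polysomes. XRN1, the cytoplasmic exonuclease that degrades decapped mRNA, rose by 0.69 (adjusted p = 0.00663), and CNOT8, a deadenylase subunit, by 0.53 (adjusted p = 0.0427). ANP32B, of a protein family that binds ELAVL1, fell by 0.40 in light polysomes (adjusted p = 0.0496, limma for all). The calls of CNOT8 and ANP32B were lost under 10 and 13 of 18 alternatives. With siRNA-2, 0 of 22 were called in either fraction (2 in each at an unadjusted p under 0.05, limma). XRN1 was 0.57 higher with siRNA-2 in heavy polysomes, above all control arrays, but did not pass (adjusted p = 0.105, limma). On the heavy mean of both siRNAs XRN1 was called (0.63, adjusted p = 0.0164, limma). Between the siRNAs it differed by 0.11 in heavy polysomes (adjusted p = 0.734, limma).

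Of 27 measured mRNAs described as ELAVL targets, 3 rose and 2 fell with siRNA-1 in heavy polysomes, and 3 rose and 7 fell in light polysomes. SATB1, a chromatin organiser described as a target of ELAVL4, rose by 1.66 in heavy (adjusted p = 0.000567) and 1.71 in light polysomes (adjusted p = 7.78e-06). The cyclin mRNAs CCNA2 and CCNB1, described as targets of ELAVL1, fell in light polysomes by 1.26 (adjusted p = 4.26e-05) and 0.99 (adjusted p = 0.000145, limma for all). With siRNA-2, CDKN1A, the cell cycle inhibitor p21, rose by 1.04 in heavy (adjusted p = 0.0332) and 1.58 in light polysomes (adjusted p = 0.00495), and CCNE1, cyclin E, fell by 0.83 (adjusted p = 0.0315) and 0.78 (adjusted p = 0.0361, limma). With siRNA-1, CCNE1 was also called in light polysomes, lower by 0.80, and passed there under each of 18 alternatives (limma). In heavy polysomes CCNE1 was not called with siRNA-1. CDKN1A, CCNE1 and DCLK2 were named after their values were seen. Their heavy siRNA-2 calls were lost under 7, 6 and 7 of 18 alternatives, and all 3 were lost when an array with replicate number 2 (any siRNA), replicate number 3 (control or siRNA-2) or replicate number 4 (control) was left out, with adjusted p up to 0.266, 0.258 and 0.273 (limma). In light polysomes the CDKN1A call was lost under 1 alternative (replicate 1 left out of every group, 0.142), and those of CCNE1 and DCLK2 under 8 and 6. The list moved in both directions, with medians of -0.06 in heavy and -0.11 in light polysomes with siRNA-1, and of 0.08 and -0.02 with siRNA-2.

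Kinases and phosphatases that act on stathmins gave 4 higher and 1 lower of 21 measured with siRNA-1 in heavy polysomes, and 3 higher and 4 lower in light polysomes. UHMK1 (KIS), a kinase that phosphorylates stathmin, rose by 1.47 in heavy (adjusted p = 0.000651) and 1.09 in light polysomes (adjusted p = 0.000195). MAPK10 (JNK3), a neuronal kinase known to phosphorylate STMN2, rose by 1.16 (adjusted p = 0.00142) and 1.05 (adjusted p = 0.000113). AURKB, a mitotic kinase, fell by 0.88 (adjusted p = 0.0117) and 1.06 (adjusted p = 0.000104, limma for all). With siRNA-2, 0 of 21 were called in either fraction (3 in each at an unadjusted p under 0.05, limma).

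Of 37 other microtubule regulators, 6 rose and 3 fell with siRNA-1 in heavy polysomes, and 3 rose and 6 fell in light polysomes. CLASP2, which stabilises microtubule plus ends, rose by 0.96 in heavy (adjusted p = 0.000566) and 1.01 in light polysomes (adjusted p = 0.00117). CAMSAP2, which protects minus ends, rose by 0.85 in heavy polysomes (adjusted p = 0.000881), and MAPT, the axonal protein tau, by 0.81 in light polysomes (adjusted p = 0.000304, limma for all). With siRNA-2, DCLK2, a doublecortin-like kinase, rose by 0.77 in heavy (adjusted p = 0.0345) and 0.88 in light polysomes (adjusted p = 0.0158, limma). DCLK2 was also called with siRNA-1 in heavy polysomes, higher by 0.62, and on the heavy mean of both siRNAs (limma). It was not called with siRNA-1 in light polysomes.

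Of 28 genes of neurite outgrowth and the neuronal cytoskeleton, 4 rose and 1 fell with siRNA-1 in heavy polysomes, and 2 rose and 1 fell in light polysomes, while 0 of 28 were called with siRNA-2 in either fraction (4 in each at an unadjusted p under 0.05, limma). RUFY3, an adaptor in axons, rose by 0.92 in heavy polysomes (adjusted p = 0.00128), and KIF5C, a neuronal kinesin, by 0.64 (adjusted p = 0.00754). BASP1, a growth cone membrane protein, fell by 0.64 in heavy (adjusted p = 0.00791) and 0.82 in light polysomes (adjusted p = 0.000865, limma for all). The medians with siRNA-2 were 0.04 in heavy and -0.02 in light polysomes.

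Among the REST corepressor genes, which hold neuronal genes silent elsewhere, CTDSPL, a small phosphatase, was the 1 of 14 called with siRNA-1 in each fraction (-0.79 in heavy, adjusted p = 0.0135, and -0.83 in light, adjusted p = 0.00463, limma). Sympathoadrenal markers gave 3 lower of 11 in heavy polysomes (HAND2, ISL1 and DBH) and 2 lower in light polysomes (HAND2 and ISL1) with siRNA-1. HAND2, a transcription factor of sympathetic neurons, fell by 0.75 (adjusted p = 0.00954) and 0.84 (adjusted p = 0.000222, limma). TWIST1 was the 1 of 9 mesenchymal markers called with siRNA-1, lower by 0.62 in heavy and 0.60 in light polysomes, and 0 of 5 Schwann cell markers were called in either fraction (1 in heavy and 0 in light polysomes at an unadjusted p under 0.05, against 21.2% and 23.6% of all clusters, limma). With siRNA-2, no gene of these 4 lists was called (limma), and at an unadjusted p under 0.05 there were 3 genes in heavy (all REST corepressor genes) and 5 in light polysomes. The part of these markers in the ELAVL2 and STMN4 rises was not tested.

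Of the listed genes named with siRNA-1, CCNA2, AURKB, BASP1, HAND2 and DCLK2 lost their heavy call without siRNA-1 replicate 2 (adjusted p 0.0517 to 0.0756). CTDSPL lost its heavy call without siRNA-1 replicate 4 (0.0512, limma for all). ISL1, DBH and TWIST1 lost theirs in heavy polysomes under 8, 3 and 5 of 18 alternatives, siRNA-1 replicate 2 among the arrays left out each time.

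In control cells the listed genes were often on the heavy side too. Of the 199, 81 were higher and 18 lower in heavy than in light polysomes, 49.7% against 27.3% of all clusters. Neurite and cytoskeleton genes had 14 higher and 3 lower of 28, with a median of 0.41, and the other microtubule regulators 17 higher and 4 lower of 37, with a median of 0.34, against -0.02 over all clusters. The members, with a median of 0.46, read in the same direction as these lists.

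The genes most like ELAVL3 and STMN2 across the 20 arrays, by Pearson's r after the mean of each fraction was subtracted, were taken from 17686 named clusters as a description. For STMN2 they were PPP2R2D, a regulatory subunit of protein phosphatase 2A (0.974), CAB39L (0.956), the fatty acid activating enzyme ACSL4 (0.947), FKBP7 (0.944) and the magnesium transporter SLC41A1 (0.938). PPP2R2D was 1.58 lower with siRNA-2 in heavy and 1.22 lower in light polysomes, and 0.04 and 0.15 higher with siRNA-1. The most opposed to STMN2 were CHAC1, which degrades glutathione (-0.943), and ABAT, which breaks down GABA (-0.919), and CHAC1 was 1.49 higher with siRNA-2 in each fraction.

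For ELAVL3 the most alike were PHYHIPL (0.91), TARDBP (0.906), the mitochondrial peroxidase PRDX3 (0.902), the actin-bundling protein PLS1 (0.901) and the RNA-binding protein RO60 (0.881). The most opposed were SLC7A11, the light chain of the cystine importer (-0.911), and the metallothionein MT2A (-0.886). SLC7A11 was 2.14 higher with siRNA-2 in heavy and 2.15 higher in light polysomes, and 1.19 and 0.69 higher with siRNA-1. Among the members, ELAVL3 and STMN2 had an r of 0.833, ELAVL3 and ELAVL4 of 0.794, ELAVL4 and STMN2 of 0.653 and ELAVL2 and STMN4 of 0.633, whereas ELAVL3 and STMN3 had -0.562. All of these points share the arrays and the 3 siRNA groups, and the pair ELAVL3 and STMN2 was chosen for being low together.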

How the data were processed

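RNA of light and heavy polysomes of BE(2)-C cells was measured on 20 Clariom S arrays, grouped by siRNA and fraction from the sample titles. The authors ran RMA from the oligo package (background correction, quantile normalization and a summary per probe set). The values they deposited are log2 signals. R 3.5.3 and limma 3.38.3 are named in the submitters' processing notes. Such scaling removes any change in total polysomal RNA. Repeats of the heavy polysome experiment are mentioned in the study. Whether same-group arrays were separate cultures, whether the fractions were normalized jointly, and the genome build are points not given in the sources used here. As a result p-values measure the spread between these arrays, and coordinates are left out. The number of arrays limits the precision.

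Of 27189 probe sets, 5741 (controls and others) were dropped. The remaining 21448 clusters were tested: 17709 carried 1 gene symbol and 3739 none. A symbol with several clusters (20 symbols) was represented by its brightest. The members and lists were chosen with earlier results of these data known. limma 3.58.1 (lmFit, eBayes, R 4.3.3) was fitted within each fraction on 10 arrays in 3 groups, and on the heavy minus light differences of 10 transfections, a heavy and a light array that shared siRNA and number counting as 1 transfection. p-values were adjusted by Benjamini-Hochberg over all clusters, with 0.05 as the threshold. Same-numbered heavy and light arrays deviated together in 1 of 10 pairs (r over 0.1), so the unpaired fit is also reported. Named genes were all members, up to 3 genes of each list with the smallest p among those called with 1 siRNA, and the 5 most alike and 2 most opposed to ELAVL3 and STMN2. Alternatives were a replicate block, each array left out, replicate 1 left out, array weights, a trended robust variance prior, repeated quantile normalization, median subtraction, a filter on dim clusters (mean above 5.02), all 20 arrays in 1 fit, both siRNAs as 1 group, and unpaired fractions. The fits were also run on simulated arrays with independent noise and no replicate effect. That check says nothing of deviations shared between arrays.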

Additional observations from a re-analysis of the deposited data

Results flagged for a closer look

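ELAVL1 in heavy polysomes of control cells read 10.34 in replicate 1, against 10.87, 10.86 and 10.92 in the other 3 control replicates, a gap that is large for a group of 4 (Dixon's test at its 95% critical value). Of 14 groups of 4 arrays examined, 7 members in 2 fractions, this was the 1 that stood out, and chance alone marks about 1 in 20. ELAVL1 in siRNA-1 replicate 1 was also low, at 10.32. The ELAVL1 difference between siRNA-1 and control in heavy polysomes was -0.02, became -0.15 without control replicate 1 and 0.19 without siRNA-1 replicate 1, and passed in none of these fits (limma). Replicate 1 is the replicate whose heavy and light arrays were closest, and the part of that in the ELAVL1 value was not tested.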

How the results depend on the processing

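The rises of ELAVL2 in light and of STMN4 in heavy polysomes with siRNA-1 passed under all 18 alternatives, and the heavy excess of ELAVL1, ELAVL3 and STMN3 in control cells under all 17. The sample titles link arrays of different siRNAs by replicate number alone, but same-numbered arrays deviated together in 10 of 16 pairs (r over 0.1, range -0.10 to 0.62). The highest r was that of control and siRNA-1 replicate 1 in heavy polysomes. The main fits within each fraction left the replicate number out, so they do not account for such shared deviations. With the replicate number as a block the count of called members went from 1 to 2 for the heavy mean of both siRNAs, from 0 to 1 for siRNA-1 against siRNA-2 in heavy polysomes and from 1 to 0 in light polysomes, STMN2 gained its heavy excess in control cells, and no other member call changed. For the heavy mean of both siRNAs the count was 2 with array weights or all 20 arrays in 1 fit, and 0 with repeated quantile normalization, median subtraction or both siRNAs as 1 group. For siRNA-1 against siRNA-2 in heavy polysomes it was 2 with array weights and 1 with the dim filter or all 20 arrays, and in light polysomes 2 with array weights, the robust prior or the dim filter and 0 with median subtraction or all 20 arrays. For the light mean of both siRNAs it was 1 with array weights, the robust prior, quantile normalization or the dim filter, and for siRNA-2 in light polysomes 1 with array weights (ELAVL1, adjusted p = 0.0431, limma). Leaving out arrays gave 0 to 2 called for the heavy mean, 1 to 2 for siRNA-1 in heavy polysomes, and 0 to 1 for the light mean and for siRNA-1 against siRNA-2 in each fraction. The causes of these changes were not tested, and a left-out fit also had fewer arrays. Differences of tested members that changed sign had no call. In the main fits they lay between -0.17 (ELAVL1 between siRNAs, heavy) and 0.15 (ELAVL1 with siRNA-2, heavy). The STMN4 light mean was -0.017 and the STMN3 light difference between siRNAs -0.011 with array weights. With the block STMN4 was at 0.00199 with siRNA-2 in light polysomes, the ELAVL4 shift at -0.020 (siRNA-1) and 0.046 (siRNA-2) and the STMN3 shift at 0.00668 (siRNA-2), and the ELAVL4 siRNA-1 shift was -0.067 after quantile normalization. Without replicate 1 in every group ELAVL1 in heavy polysomes was at 0.051 with siRNA-1, -0.016 with siRNA-2 and 0.067 between siRNAs, STMN4 in light polysomes at 0.043 with siRNA-2, and the shift at 0.011 for ELAVL1 and -0.034 for ELAVL4 with siRNA-1 and at 0.043 for STMN3 with siRNA-2. With single arrays left out, ELAVL1 in heavy polysomes ran from -0.071 to 0.17 (mean of both siRNAs), -0.18 to 0.19 (siRNA-1) and -0.32 to 0.040 (between siRNAs), and with siRNA-1 in light polysomes from -0.047 to 0.10. ELAVL4 with siRNA-1 ran from -0.21 to 0.015 in heavy and -0.19 to 0.012 in light polysomes. STMN3 between siRNAs ran from -0.17 to 0.013 in heavy and -0.041 to 0.083 in light polysomes, and STMN4 in light polysomes from -0.012 to 0.14 (mean) and -0.15 to 0.12 (siRNA-2). The shifts ran from -0.23 to 0.12 (ELAVL1) and -0.031 to 0.11 (ELAVL4) with siRNA-1, and from -0.10 to 0.17 (ELAVL2), -0.071 to 0.073 (ELAVL4) and -0.18 to 0.11 (STMN3) with siRNA-2. STMN4 was limited by its signal over background, and 3 or 4 arrays per group limited every comparison.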
